A study of Mus musculus with 5 samples.

Results

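The FGF and ERK feedback genes described here are Spry1, Spry2, Spry4, Spred1, Spred2, Dusp4, Dusp5, Dusp6, Etv4 and Etv5, 10 of the 18193 genes that the array annotation names from probe sets with 1 gene each. They were chosen by name, with earlier results of these data known. The set is of genes that ERK signalling induces and that, in most cases, act back on it. Every probe set that the annotation assigns to 1 of them was used, which gave 28 of the 45101 probe sets on the array. Gene expression was measured by Affymetrix 3' expression array in epithelial cells sorted from the proximal airways of C57BL/6 mice. The mice were of both sexes and 8 to 12 weeks old, untreated as far as the labels say, and each array held RNA from its own pool of 10 to 15 mice. The duct group had 3 arrays. Its cells were sorted as TROP-2+ from the upper section of the trachea, after pronase had removed the surface epithelium, and the labels call them duct cells, with TROP-2 staining done on submucosal gland cells. The basal group had 2 arrays, of TROP-2+ITGA6+ cells sorted from dispase-digested surface epithelium of the lower section. Enzyme, tracheal section and sort gate changed with the cell type, so their effects on any difference cannot be told apart.

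FGF ligands bind receptor tyrosine kinases on the cell surface, and the signal passes through RAS, RAF and MEK kinases to ERK. Active ERK switches on genes that damp it: Sprouty and Spred proteins hold back the steps between receptor and RAF, and dual-specificity phosphatases remove the activating phosphates from ERK itself. The ETS factors Etv4 and Etv5 carry the signal to the genome and are read as its targets in the developing lung, where mesenchymal Fgf10 acts on epithelial Fgfr2. EGF receptor signalling uses the same cascade, so levels of these genes report ERK activity from more than 1 receptor.

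Among the feedback genes, Spry2, Spry1, Dusp6 and Spred2 had lower levels in every duct array than in either basal array, and Dusp5 had higher levels in every duct array. The other 5 members, Spry4, Spred1, Dusp4, Etv4 and Etv5, overlapped between the groups. With limma over 12536 tested genes, 0 of the 10 members passed an adjusted p of 0.05, the call used throughout, against 0.973% of all tested genes. At an unadjusted p under 0.05, limma had 4 members lower and 1 higher in duct cells, and over all tested genes these shares were 10.6% lower and 7.91% higher. Groups that did not overlap with duct cells lower were found for 22.6% of tested genes, and with duct cells higher for 16.5%, against 4 and 1 of the 10 members. The separated members thus lay on both sides, and none of the differences between members' groups below passed the test over all genes.

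**Figure D1:**
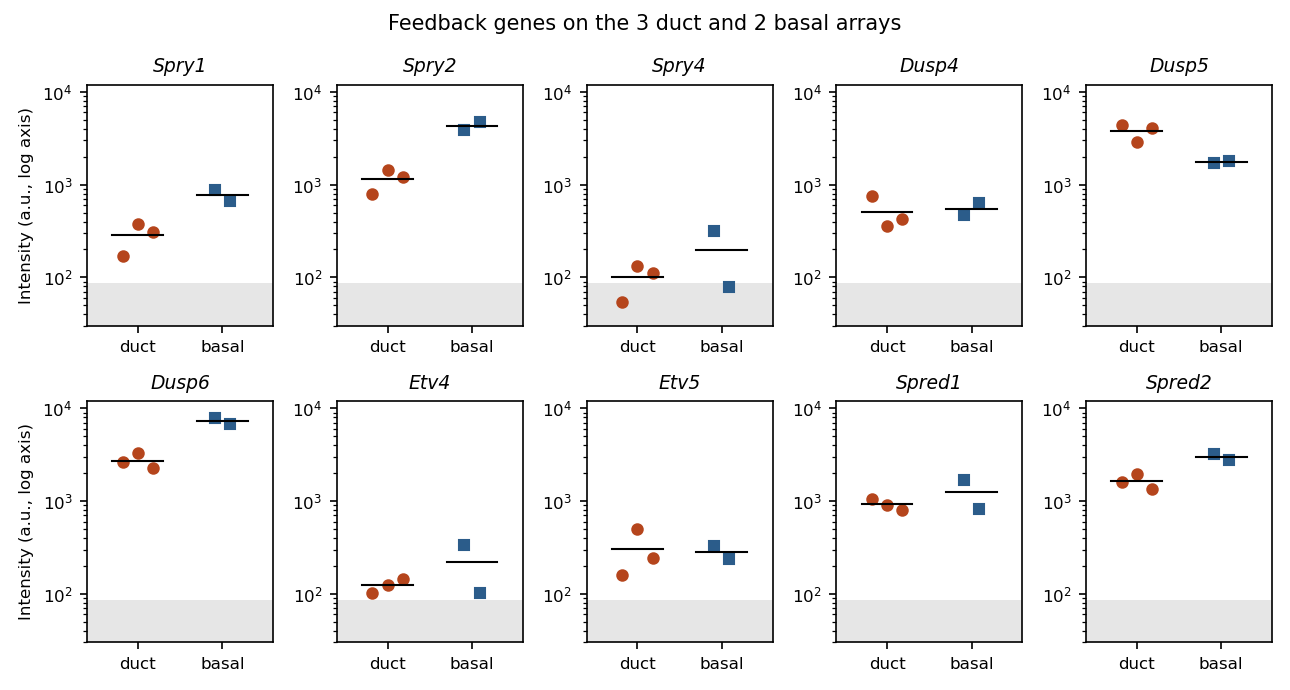
Intensity (arbitrary units, log axis) of each feedback gene on the 3 duct arrays (circles) and the 2 basal arrays (squares), in order of replicate number, with group means as black lines. The grey area ends at 86.5, the brightest Bacillus control probe set on any array, and the duct points lie below both basal points for Spry1, Spry2, Dusp6 and Spred2 and above them for Dusp5.

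Sprouty proteins are intracellular inhibitors of receptor tyrosine kinase signalling, and Spry2 limits airway branching in the mouse lung. Spry2 measured 792, 1428 and 1220.2 intensity units on duct replicates 1, 2 and 3, against 3921 and 4724 on basal replicates 1 and 2. The highest duct array was thus well under the lower basal array. Means were 1147 ± 324 in duct cells (SD, n = 3) and 4322 ± 568 in basal cells (SD, n = 2). The log2 fold change of duct over basal cells, computed on log2(intensity + 16), was -1.93 (SE 0.33, 95% interval -2.75 to -1.12), which is 3.82-fold on that scale, and limma's adjusted p was 0.0691. A second Spry2 probe set measured 360.4, 383 and 282 on the duct arrays, against 934 and 955.5 on the basal arrays, at -1.44. Both Spry2 probe sets therefore separated the groups in the same direction. Spry2 was called in 5 of 17 alternative settings and not in the rest. With 1 array left out, limma's adjusted p for Spry2 was 0.108 to 0.282, and with the replicate number as a block it was 0.300.

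Spry1, the sprouty gene best known from kidney development, had 1 probe set, at 169.9, 377 and 308 units on the duct arrays, against 870.4 and 670.5 on the basal arrays. Its groups did not overlap either, and its fold change was -1.44 (SE 0.39, 95% interval -2.40 to -0.49, limma adjusted p = 0.143). Duct replicate 1 was the lowest array for Spry1 and for the more intense Spry2 probe set. Spry4 was dim. Its most intense probe set measured 54.9, 132 and 113 units on the duct arrays, against 314 and 79.5 on the basal arrays, so basal replicate 1 was above all duct arrays and basal replicate 2 lay among them. Basal replicate 2 was under that array's brightest Bacillus control, at 86.5. The fold change of Spry4 was -0.68 (SE 0.61, limma adjusted p = 0.593), and 0.21 without basal replicate 1. A second Spry4 probe set gave -0.98, also with overlap, and 2 more were left out as dim.

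Spred proteins, relatives of the sproutys, restrain RAS signalling with the help of neurofibromin. Spred2 measured 1611, 1959 and 1361 units on the duct arrays, against 3186 and 2804 on the basal arrays. All duct arrays were lower, by a fold change of -0.87 (SE 0.27, 95% interval -1.53 to -0.22, limma adjusted p = 0.179). The 4 tested Spred2 probe sets did not all point one way: they ran from -1.07 to 0.44, 3 were negative, and 2 had groups that did not overlap. The positive one was dim, at 84.7, 178 and 207 units on the duct arrays, against 114 and 95.2 on the basal arrays. Spred1 had 8 probe sets, the most of any member. The most intense one measured 1064, 918 and 801 units on the duct arrays, against 1693 and 812 on the basal arrays, where basal replicate 2 fell inside the duct range. The fold change of Spred1 was -0.34 (SE 0.37, limma adjusted p = 0.663), and 0.18 without basal replicate 1. Of the 6 Spred1 probe sets tested, 5 were negative, 2 had non-overlapping groups, and they ran from -0.74 to 0.01.

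The phosphatases went in opposite directions. Dusp6, the cytoplasmic phosphatase that acts on ERK with high selectivity, measured 2652, 3270.4 and 2268 units on the duct arrays, against 7822 and 6803 on the basal arrays. Means were 2730.2 ± 506 in duct cells (SD, n = 3) and 7313 ± 721 in basal cells (SD, n = 2), a fold change of -1.43 (SE 0.27, 95% interval -2.09 to -0.77, limma adjusted p = 0.0786). Dusp5, a nuclear phosphatase that acts on ERK, measured 4343, 2888 and 4070.2 units on the duct arrays, against 1706 and 1791 on the basal arrays. Means were 3767 ± 774 in duct cells and 1749 ± 59.98 in basal cells, a fold change of 1.08 (SE 0.28, 95% interval 0.39 to 1.77, limma adjusted p = 0.134). Each has 1 probe set, so neither direction could be checked on a second one. Dusp4, a nuclear phosphatase of ERK and other MAP kinases, measured 757, 358 and 421 units on the duct arrays, against 474 and 627 on the basal arrays. Its groups overlapped fully, at -0.16 (SE 0.38, limma adjusted p = 0.853). The 95% interval of Dusp4, -1.11 to 0.79, still includes changes of 2-fold on the negative side.

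Because Dusp5 and Dusp6 stood on opposite sides, their promoters are shown, with that of Spry2, which had the largest fold change of the 10. RefSeq promoter windows of 300 bases (250 before and 50 after the gene's start, build GRCm38.p6) were given for 7 of the 10 members, in 8 windows, 2 of them for Etv5. Only the 250 bases before the start are printed, 5′ to 3′ on the gene's own strand. Capitals mark the motif matches described after them.
Dusp5, chr19:53528895-53529144, plus strand: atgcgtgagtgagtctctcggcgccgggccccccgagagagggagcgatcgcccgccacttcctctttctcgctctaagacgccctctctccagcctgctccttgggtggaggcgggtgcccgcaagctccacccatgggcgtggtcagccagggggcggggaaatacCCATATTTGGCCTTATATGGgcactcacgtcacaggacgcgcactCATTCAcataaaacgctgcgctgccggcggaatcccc
Dusp6, chr10:99262981-99263230, plus strand: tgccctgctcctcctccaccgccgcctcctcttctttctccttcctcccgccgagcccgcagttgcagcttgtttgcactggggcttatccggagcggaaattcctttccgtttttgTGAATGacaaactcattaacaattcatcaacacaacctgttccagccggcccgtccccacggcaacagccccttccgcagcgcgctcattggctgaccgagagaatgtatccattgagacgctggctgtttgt
Spry2, chr14:105896820-105897069, minus strand: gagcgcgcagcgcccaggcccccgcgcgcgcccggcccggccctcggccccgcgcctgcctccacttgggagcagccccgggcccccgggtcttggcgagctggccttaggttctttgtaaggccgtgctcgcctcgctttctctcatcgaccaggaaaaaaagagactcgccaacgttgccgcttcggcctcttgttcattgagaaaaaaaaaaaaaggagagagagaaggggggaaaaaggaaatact
The first block of capitals in the Dusp5 promoter holds a pair of adjoining CArG boxes, the sequence bound by serum response factor, starting 82 and 72 bases before the gene's start. The CArG box, searched on both strands as 1 palindromic pattern, was in 1.63% of all 32851 promoter windows and in 1 of the 8 member windows. The short run of capitals in Dusp5 and in Dusp6 is TGAATG, read on either strand, the core of the site of Capicua, a repressor that ERK signalling inactivates. That core was in the windows of Dusp5, Dusp6 and Etv5, and in 12.7% of all windows. The Dusp5 match starts 37 bases and the Dusp6 match 133 bases before the start, and 1 of the Etv5 windows has 3 matches. Spry2 had no match to either and is therefore all in lower case. Both patterns were added after the sequences had been seen. Of the patterns searched first, also on both strands, CCGGAAGT, an ETS site, was in 3.89% of all windows, TGAATGNA, which contains the Capicua core, in 3.82%, and TGANTCA, the AP-1 site, in 7.81%, and each was in 0 of the 8 member windows. These matches describe letters in a short window, and binding was not measured.

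Of the ETS transcription factors of the set, Etv4 was dim, and neither Etv4 nor Etv5 separated the groups. Etv4 measured 103, 125 and 145 units on the duct arrays, against 338 and 102 on the basal arrays. Only basal replicate 1 stood above the duct arrays. The fold change was -0.55 (SE 0.49, limma adjusted p = 0.594), and 0.24 without basal replicate 1. Etv5 measured 160.0, 498 and 245 units on the duct arrays, against 329.5 and 236 on the basal arrays, at -0.04 (SE 0.49, limma adjusted p = 0.974). Duct replicates 1 and 2 thus enclosed both basal arrays. The other tested probe sets of Etv5 gave 0.78 and 0.03. The interval of Etv5, -1.25 to 1.17, includes changes of 2-fold either way, so a difference of that size was not detectable with these arrays.

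How far the members agreed in direction varied with the arrays and the scaling used. By sign alone, 9 of 10 fold changes were negative, against 58.4% of all tested genes, whose median was -0.12. The median of the 10 members was -0.62. Without basal replicate 1, the signs divided into 5 positive and 5 negative and the members' median was -0.09. Without basal replicate 2, 2 members were positive and the median was -1.16. With each array centred on its median, which moved the median of all genes to 0.08, 3 members were positive. Spry1, Spry2, Dusp6 and Spred2 stayed negative and Dusp5 stayed positive under all 17 alternative settings. Several of these settings change only the filter, the test or the unit and keep a member's fold change, so they could not turn its sign. The block by replicate number gives the same fold changes as leaving out duct replicate 3. Spry4, Spred1, Dusp4, Etv4 and Etv5 each turned sign under at least 1.

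**Figure D2:**
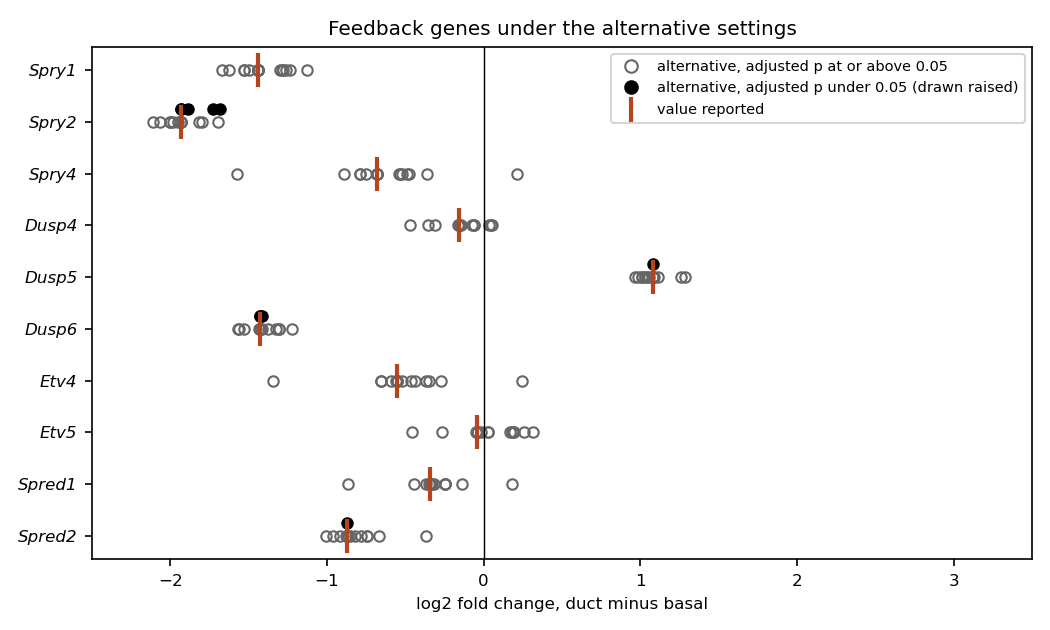
Log2 fold change, duct minus basal, of each feedback gene in the fit reported (orange bars) and under the 17 alternative settings (points; 16 for Spry4 and Etv4). Filled points, drawn raised, had an adjusted p under 0.05, which was the case for Spry2 in 5 settings, Dusp6 in 3, and Dusp5 and Spred2 in 1 each.

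Over probe sets the picture was similar. Of the 28, 22 passed the filter on low values and 6 were left out, at 4.41 to 108 units. Of the 22 tested, 17 were negative and 5 positive, 8 did not overlap with duct lower and 1 with duct higher. Over all 27022 tested probe sets the non-overlapping shares were 20.7% and 14.9%. With probe sets as the unit, limma called 0 of the 22, and 0.233% of all tested probe sets; the smallest adjusted p was 0.119, for Spry2. Of the 5 members with more than 1 tested probe set, Spry2 and Spry4 had all of them negative, and Spred1, Spred2 and Etv5 had both signs.

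**Figure D3:**
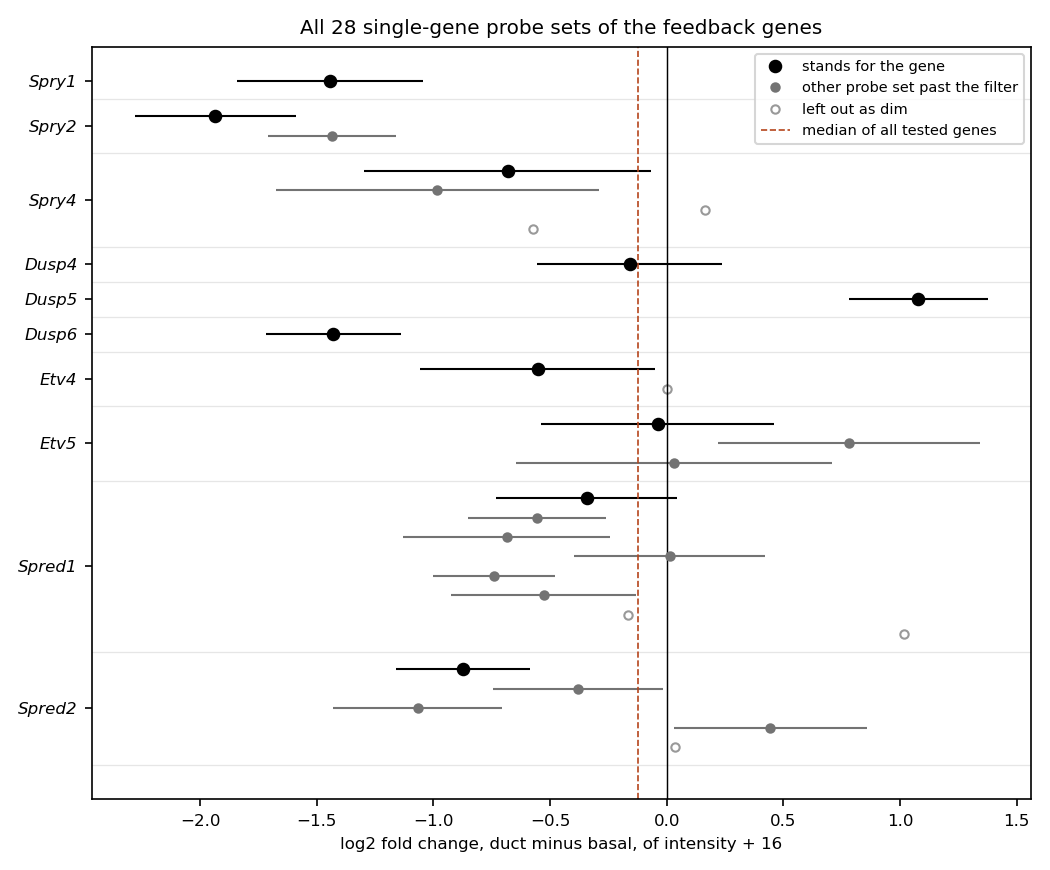
Log2 fold change of duct over basal cells, from log2(intensity + 16), of all 28 probe sets of the feedback genes. Bars are limma's SE of the fit by probe set, open points are the 6 probe sets left out as dim, and the dashed line is the median of all tested genes, -0.12. The 2 Spry2 points and those of Spry1 and Dusp6 lie at or below -1.43, and Dusp5 at 1.08. Spred1, Spred2 and Etv5 have tested points on both sides of 0. Spry4 and Etv4 are above 0 only at an open point.

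The likeness of the profiles was measured as the root mean square difference in log2(intensity + 16) over the 5 arrays, after each gene was centred on its own mean. From Spry2, the member with the largest fold change, Spry1 was at 0.324 and ranked 59th of the tested genes, Dusp6 at 0.394 and 150th, and Spred2 at 0.606 and 902nd. The nearest genes of all were Dtna at 0.126, Edaradd, an adaptor of the ectodysplasin receptor, at 0.147 and Rab17, a small GTPase of epithelial membrane traffic, at 0.149. Dtna measured 81.6, 137 and 133 units on the duct arrays, against 407 and 621 on the basal arrays.

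Upstream of the feedback genes, most ligand genes were left out as dim. Of 22 FGF ligand genes, 8 passed the filter, 0 were called, and their median fold change was -0.54; 14 did not pass, and Fgf2, Fgf3, Fgf6, Fgf8 and Fgf15 were under the brightest Bacillus control on every array. Fgf1, a ligand of all FGF receptors, measured 760.3, 848 and 802 units on the duct arrays, against 1541 and 2101 on the basal arrays. It was lower in all duct arrays, at -1.15 (SE 0.25, limma adjusted p = 0.104). Fgf16 measured 83.1, 272 and 128 units on the duct arrays, against 459 and 309.6 on the basal arrays (-1.30, limma adjusted p = 0.248).

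No receptor was called. Fgfr2, the main epithelial FGF receptor of the airway, measured 9676, 10014 and 10294 units on the duct arrays, against 10261 and 10580.3 on the basal arrays. The groups overlapped on this probe set, and the fold change was -0.06 (SE 0.22, limma adjusted p = 0.910). A second tested Fgfr2 probe set measured 3049, 2620.4 and 3594 units on the duct arrays, against 4616 and 4747 on the basal arrays. It was lower in all duct arrays, at -0.61 (limma adjusted p = 0.374 in the fit by probe set), so the Fgfr2 probe sets differed in whether the groups separated. Fgfr3 measured 1879 ± 364 units in duct cells (SD, n = 3) and 2463 ± 169.9 in basal cells (SD, n = 2), lower in all duct arrays, at -0.40 (limma adjusted p = 0.476). Of 10 tested genes of receptors and adaptors, 0 were called, 5 were positive and 5 negative. In the RAS-ERK cascade 15 genes were tested, and the other listed genes were not analysed here. Among them 0 were called, 8 were positive and 7 negative, and the median was 0.08. In this cascade 2 genes were higher and 3 lower in all duct arrays, against 16.5% and 22.6% of all tested genes. The abundant members Nras, a RAS isoform, and Ptpn11, the phosphatase SHP2 that couples receptors to RAS, were higher in all duct arrays on their most intense probe sets, at 0.60 and 0.63 (limma adjusted p = 0.298 and 0.264). The 3 tested Nras probe sets did not share a direction: another was at 0.71, and 1 was lower in all duct arrays, at -0.30. Nf1, the neurofibromin gene, Shc1 and Rasa1 were picked with their values known. On their most intense probe sets they were lower in all duct arrays, at -1.07, -0.83 and -0.77 (limma adjusted p = 0.172, 0.221 and 0.197). Each also had a tested probe set with a positive fold change, at 0.42, 0.38 and 0.03.

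On a list of other ERK output and feedback genes, most lay on the opposite side from Spry1, Spry2 and Dusp6. Of its 14 tested genes 12 had a positive fold change, with a median of 0.39. Il17rd and Cic, the Capicua gene, both picked with their values known, were negative, at -0.35 and -0.28. On their most intense probe sets, 9 genes were higher in all duct arrays and 0 lower in all, against 16.5% and 22.6% of all tested genes. Ccnd1 and Rasa2, picked with their values known, were among the 9 but had other tested probe sets that overlapped. These were at -0.09 and 0.01 for Ccnd1 and 0.70 for Rasa2. Other tested probe sets of Fosl1, Errfi1, Dusp7 and Epha4 were higher in all duct arrays. Fosl1, the AP-1 subunit FRA-1 and an ERK target, rose: it measured 6570.2, 5149 and 4798 units on the duct arrays, against 1531 and 1054 on the basal arrays. Its fold change of 2.09 (SE 0.29, limma adjusted p = 0.0488) was the 1 call on the list. Without any 1 array Fosl1 was not called: limma's adjusted p was 0.101, 0.134 and 0.158 without duct replicates 1, 2 and 3, and 0.209 and 0.199 without basal replicates 1 and 2, with fold changes of 1.82 to 2.35. Errfi1, a feedback inhibitor of the EGF receptor, measured 20222, 19370 and 17706 on the duct arrays, against 10895 and 11515 on the basal arrays, at 0.77 (limma adjusted p = 0.172). Maff, a small Maf factor, measured 15113 ± 1680.2 units in duct cells (SD, n = 3) and 14215 ± 2572 in basal cells (SD, n = 2), at 0.09. Myc and Epha4, picked with their values known, were at 1.11 and 1.93 (limma adjusted p = 0.0983 and 0.0786), with duct arrays higher throughout. Of 6 tested phosphatases of MAP kinases outside the members, 0 were called. On their most intense probe sets 4 were higher in all duct arrays, against 16.5% of all tested genes. The 4 included Dusp16, a phosphatase of JNK and p38, at 1.01 (limma adjusted p = 0.237). A second tested Dusp16 probe set overlapped between the groups, at 0.58. Dusp7, at 1.03 (limma adjusted p = 0.193), was counted both here and on the list of other ERK output and feedback genes. Dusp1, a broad MAP kinase phosphatase of the stress response, measured 16155 ± 2167 units in duct cells (SD, n = 3) and 18078 ± 791 in basal cells (SD, n = 2), at -0.17 (limma adjusted p = 0.749).

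**Figure D4:**
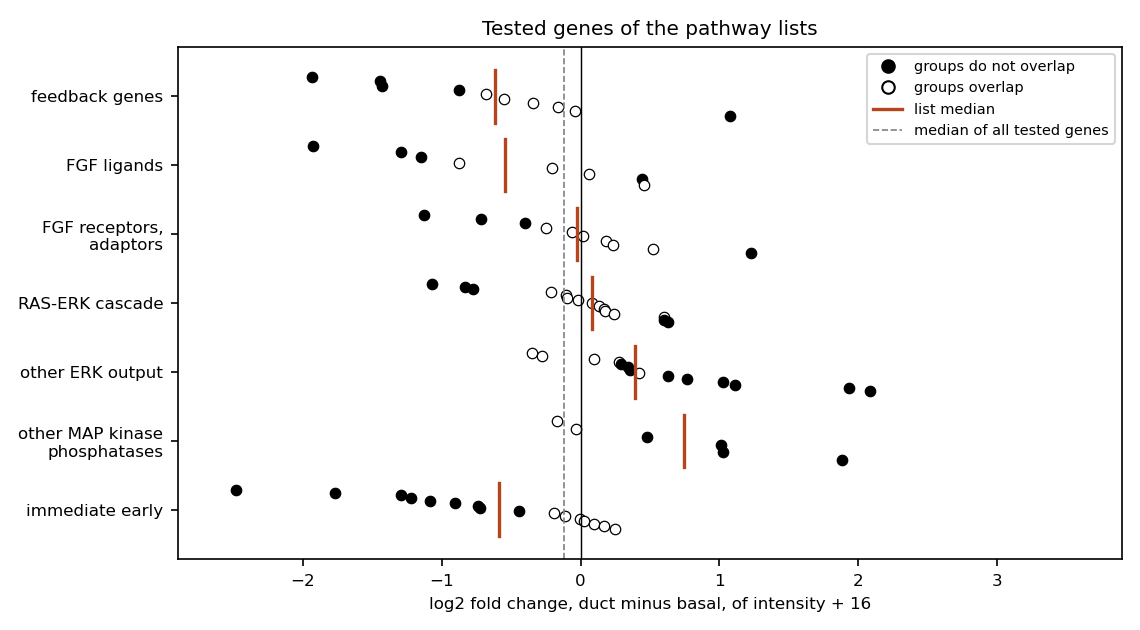
Log2 fold change of duct over basal cells, from log2(intensity + 16), of the tested genes of each pathway list, 1 point a gene. Filled points are genes whose duct and basal arrays did not overlap, orange bars are list medians (-0.62 for the feedback genes, 0.39 for other ERK output, -0.59 for immediate early genes), and the dashed line is the median of all tested genes.

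Genes of the EGF receptor family, the other main route into ERK, had 0 of 7 tested genes called, with a median of 0.32. Hbegf, an EGF receptor ligand, measured 5535 ± 104 units in duct cells (SD, n = 3) and 5203 ± 1283 in basal cells (SD, n = 2), at 0.11. A second Hbegf probe set was higher in all duct arrays, at 0.65. Erbb3, a receptor of the family, measured 4622 ± 762 in duct cells and 3311 ± 243 in basal cells, at 0.47. Erbb2, another receptor, picked with its values known, was lower in all duct arrays. It measured 318, 483 and 358 units there, against 940 and 596 on the basal arrays, at -0.95 (limma adjusted p = 0.212).

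Immediate early genes, which rise within minutes of ERK activation and also during tissue dissociation, lay on the same side as the lower feedback genes. Of 16 tested, 12 were negative, against 58.4% of all tested genes, and the median was -0.59. In all duct arrays 9 were lower and 0 higher, against 22.6% and 16.5% of all tested genes. At an unadjusted p under 0.05 limma had 6 lower, against 10.6% of all tested genes, and 0 were called. Their summed intensity was 163713 to 177065 on the duct arrays and 200860 to 223921 on the basal arrays. Egr1 and Fos, transcription factors picked with their values known, were at 9652 ± 1548 and 12397 ± 1354 in duct cells (SD, n = 3), against 23451 ± 158 and 23077 ± 656 in basal cells (SD, n = 2). Their fold changes were -1.29 and -0.90 (limma adjusted p = 0.0844 and 0.138). The abundant members Jun and Zfp36 were at -0.11 and -0.19 (limma adjusted p = 0.834 and 0.716). The part of dissociation in the levels of the feedback genes was not tested.

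The cell type labels were set against marker genes. All 8 markers of airway basal cells analysed here were above the brightest Bacillus control on at least 1 array of each group, among them Krt5 and Krt15. Krt14, a basal keratin, was at 19816 ± 2251 units in duct cells (SD, n = 3), against 1430.0 ± 146 in basal cells (SD, n = 2). On their most intense probe sets, 5 of the 8 were higher in all duct arrays, against 16.5% of all tested genes. The other 3 were lower in all of them, against 22.6% of all tested genes: Ngfr at -1.76, Pdpn at -0.80 and Trp63 at -0.33. Ngfr and Trp63 each had a tested probe set that overlapped between the groups, at -0.31 and -0.07. Each also had a further tested probe set that was lower in all duct arrays. Summed club cell markers were at 72691 to 88706 units on the duct arrays and 80791 to 123763 on the basal arrays. Of these, Scgb3a2 and Cyp2f2 were lower in all duct arrays, and Scgb1a1 was at 9934 and 32690.4 units on basal replicates 1 and 2. Summed leukocyte markers were at 913 to 1715 units on the duct arrays and 491 to 1201 on the basal arrays, mesenchymal markers at 1804 to 4247 on the duct and 3791 to 4714 on the basal arrays, and ciliated cell markers at 617 to 1124 on the duct and 1076 to 1678 on the basal arrays. Of the endothelial markers 0 of 5 passed the filter, and Kdr, Tek and Tie1 were under the controls on every array. Actg2 and Des, of muscle, were under the controls too, whereas 2 others of the muscle and myoepithelial list were tested. Acta2 measured 316 to 459 units on the duct arrays and 119 to 142 on the basal arrays, at 1.499 (limma adjusted p = 0.0751). Myh11 measured 13.6 to 80.7 on the duct arrays and 289 to 357 on the basal arrays, at -2.72 (limma adjusted p = 0.0806). A second tested Myh11 probe set overlapped between the groups, at 44.1, 78.0 and 131 on the duct and 93.6 and 103 on the basal arrays. Its fold change was -0.28. Thyroid markers were at 9213 to 21078 on the duct arrays and 328 to 360.0 on the basal arrays. Tg made up 8779, 16062 and 20119 units of this on the duct arrays, against 11.1 and 53.2 on the basal arrays. Duct replicate 1 had the lowest median intensity, 92.3 against 146.6 to 152.8 on the other 4 arrays; without it Spry2 was at -1.69, Spry1 at -1.13, Dusp6 at -1.42, Spred2 at -0.87 and Dusp5 at 0.97. In such sorted pools, fewer cells of a type and less RNA per cell cannot be told apart, and the part of other cells in these differences was not tested.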

How the data were processed

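The authors deposited 1 linear intensity per probe set and array. Each array was scaled by the authors: after the lowest and highest 2% of probe sets are dropped, the mean of the deposited intensities is 500.0 on all 5. How probes were summarised and corrected for background, and with which software, is not given in the sources used here.

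Of 45101 probe sets, 64 controls were left out; 34945 had 1 gene symbol in the platform annotation, 932 several and 9160 none listed. The probe set with the highest mean log2(intensity + 16) stood for each gene, and the lowest 40% of probe sets were left out, which left 12536 genes, all 10 members among them. Fold changes are of duct over basal cells, computed on log2(intensity + 16), which understates those of dim genes. They were fitted with lmFit and eBayes of limma 3.58.1 (R 4.3.3), 2-sided, without covariates, with Benjamini-Hochberg adjustment over all tested genes. Residual degrees of freedom were 3, with 2.79 added by eBayes. The 27 Bacillus control probe sets served as a measure of background. The fit was tested on simulated data.

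The members and gene lists were chosen with earlier results of these data known. The genes named are the members, the 3 tested genes nearest in pattern to the member with the largest fold change and, from each other pathway list, up to 4 called genes and the 2 tested genes of highest mean level; any other is said to have been picked with its values known. The alternatives were other scalings, pseudocounts, filters, probe set choices, eBayes options, array weights, a block by replicate number and each array left out. The number of arrays limits the precision. Any 2 arrays had at most 1 value in common. Promoters are from RefSeq, GRCm38.p6. Figures were drawn with matplotlib 3.10.9.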

Additional observations from a re-analysis of the deposited data

How the results depend on the processing

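As reported, limma called 0 members and 4 lower and 1 higher had an unadjusted p under 0.05; Spry2 was called in 5 of 17 alternatives, Dusp6 in 3, Dusp5 and Spred2 in 1 each and the other 6 members in none. The number of members called was 1 with arrays centred on their medians (Spry2, adjusted p = 0.0385), 2 with a pseudocount of 64 (Spry2 at -1.89 and Dusp6 at -1.41), 2 with the lowest 60% left out (Spry2 and Dusp6), 1 with all of a gene's probe sets averaged (Spry2 at -1.69) and 4 with an intensity trend and robust fit (Spry2, Dusp6, Dusp5 and Spred2). With the lowest 60% left out, Spry4 and Etv4 were not tested. Under the same settings 338, 303, 408, 191 and 942 genes were called in all, against 122 in the fit reported, and 36 were called with no filter, 63 with probe sets as the unit and 0 to 48 with 1 array left out. With 1 basal array left out, the fit takes the spread of the duct arrays for that of the remaining basal one. The 0 was without basal replicate 2, where 931 genes higher and 882 lower had an unadjusted p under 0.05 with limma.

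The count of positive members, 1 as reported, was 2 with quantile normalization, the mean of probe sets and array weights, 3 with median centring and 2 to 5 with 1 array left out. The members' median was -0.43 with quantile normalization, -0.41 with median centring, -0.32 with the mean of probe sets and -1.16 to -0.089 with 1 array left out. Etv5 turned to 0.18 with quantile normalization, 0.17 with median centring, 0.26 with the mean of probe sets and 0.20 with array weights, and ran from -0.46 without duct replicate 2 to 0.31 without duct replicate 1, with 0.029 without duct replicate 3. Dusp4 turned to 0.046 with median centring, and ran from -0.47 without duct replicate 1 to 0.052 without duct replicate 2, with 0.036 without basal replicate 2. Without basal replicate 1, Spry4, Etv4, Etv5 and Spred1 were at 0.21, 0.24, 0.19 and 0.18; without basal replicate 2, Spry4, Etv4 and Spred1 were at -1.58, -1.35 and -0.87, the other end of their ranges. Fosl1 stayed positive in all 17 alternatives and was called in 8 of them, with adjusted p from 0.000148 to 0.295. As for the members, several of these alternatives keep the fold change of Fosl1 as it is. Why the members' signs and counts changed between settings was not tested.

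The replicate numbers pair no samples in the labels, and the samples came from separate pools. The deviations of same-numbered arrays from their group means correlated at -0.08 and -0.04 across genes. With 2 basal arrays, the deviations of 1 are those of the other with the sign turned. These correlations therefore cannot tell whether the numbers pair samples. With the replicate number as a block, 0 genes and 0 members were called with limma (650 genes higher and 958 lower had an unadjusted p under 0.05), 2 members were positive, and Etv5 was at 0.029.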
